A study of Mus musculus with 12 samples.

Results

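The p53 target genes Cdkn1a, Mdm2, Ccng1, Bax, Phlda3, Zmat3, Sesn2, Eda2r, Aen and Bbc3 were followed in mouse liver after chronic injury by carbon tetrachloride (CCl4). They were chosen by name as known targets of p53, and all 10 are among the 21936 genes of the expression table. RNA of whole liver was sequenced from 3 groups of male mice, labelled C57BL/6 and given as C57BL/6J in the study's supplement, with 3 libraries in each group. All of these mice, which were 6 weeks old on purchase, had received 1 mL/kg of CCl4, a solvent that injures hepatocytes, 2 times per week for 8 weeks. Mice of the liver fibrosis group (LFG) were killed when that course ended, while the other groups were treated through the tail vein 2 times per week for another 4 weeks. In the regression group (REG) these injections held 200 µL of phosphate-buffered saline. In the hADMSCs-Exo group they held, in the same volume, 250 µg of exosomes that human adipose mesenchymal stem cells had released. Every mouse had therefore been exposed to CCl4, and liver without CCl4 was not analysed here. Both REG and hADMSCs-Exo livers were also taken later and from older mice than LFG livers, so that treatment, time since CCl4 and age cannot be told apart in a comparison with LFG.

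The transcription factor p53 is stabilized by DNA damage and other stresses, binds response elements in and near its target genes, and raises their transcription. Its targets stop the cell cycle (Cdkn1a), feed back on p53 itself (Mdm2), take part in apoptosis (Bax, Bbc3, Eda2r, Aen) or adjust growth and metabolism under stress (Sesn2, Phlda3). In chronically injured liver, Cdkn1a is known as a marker of hepatocytes and other cells that halt division, and many of these genes also respond to signals other than p53. In RNA of whole liver, fewer cells of a type and less RNA per cell cannot be told apart.

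The promoters of these genes were searched for the p53 response element. Of the 10 genes, 9 matched the RefSeq promoter table of build GRCm38.p6, which gave 13 promoters of 250 bases before to 50 bases after a transcription start, and Zmat3 had no entry there. The consensus p53 response element has 2 half-sites of 10 bases each, was searched without a spacer, and reads the same on both strands. With at most 1 mismatch it was found in 2 of the 13 promoters, of the members Cdkn1a and Ccng1, and in 0.067% of all 32851 promoters. The elements are shown because Cdkn1a varied most between libraries of all members and Ccng1 least, and the capitals mark the core of each half-site.
Cdkn1a, chr17:29090928-29090947, plus strand, beginning 51 bases before a start: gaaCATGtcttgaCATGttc
Ccng1, chr11:40755462-40755481, minus strand, beginning 195 bases before the start: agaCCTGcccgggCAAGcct
Each of these differed from the consensus at 1 base. A half-site without a mismatch was found in 5 members, adding Aen, Bax and Mdm2 to these. By promoter this was 6 of the 13 of the members, beside 8.36% of all promoters.
Aen, chr7:78895937-78895946, plus strand: gggCTTGtcc
Bax, chr7:45467090-45467099, minus strand: aggCAAGctt
Mdm2, chr10:117710935-117710944, minus strand: gaaCTTGcct
The promoter of Cdkn1a that holds the full element, at chr17:29090729-29091028 on the plus strand, is given whole below, with the element and a further half-site upstream of it in capitals.
Cdkn1a promoter: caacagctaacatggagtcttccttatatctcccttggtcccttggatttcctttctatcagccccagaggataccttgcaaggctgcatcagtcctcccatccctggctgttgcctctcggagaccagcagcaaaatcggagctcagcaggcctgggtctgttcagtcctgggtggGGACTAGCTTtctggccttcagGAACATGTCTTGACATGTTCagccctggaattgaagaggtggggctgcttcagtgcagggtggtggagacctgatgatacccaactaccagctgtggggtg
The other Cdkn1a promoter, at chr17:29093519-29093818, held neither the full element with at most 1 mismatch nor a half-site without a mismatch. A match is a description of the letters, and elements farther from the start or inside the genes were not searched.

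Total counts ranged from 13837445 to 19840917 per library, the lowest being the third LFG library (LFG 3), which also had the fewest detected genes, 13924 against 14539 to 15248 in the others. LFG 3 stood apart from LFG 1 and LFG 2. The summed level of 9 markers of hepatic stellate cells and myofibroblasts, the matrix-forming cells of a fibrotic liver, was 1223, 743 and 34.6 CPM (counts scaled to a common library total) in LFG 1 to 3, against 131 to 227 in REG and 43.3 to 113 in hADMSCs-Exo. The 8 macrophage markers summed to 1155, 906 and 142 CPM in LFG, and the 6 cholangiocyte markers to 193, 147 and 50. The 7 hepatocyte markers in the table were detected in every library and summed to 84236 to 144880 CPM in LFG, 162698 to 169041 in REG and 115442 to 135625 in hADMSCs-Exo, with LFG 1 lowest. Counts and calls against LFG are therefore given with and without LFG 3, and a fit without it has 2 LFG libraries. CPM below were scaled by the trimmed mean of M-values (TMM). The scaling factors of LFG were 1.38, 1.09 and 0.808, against 0.923 to 1.03 in the other libraries.

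**Figure D1:**
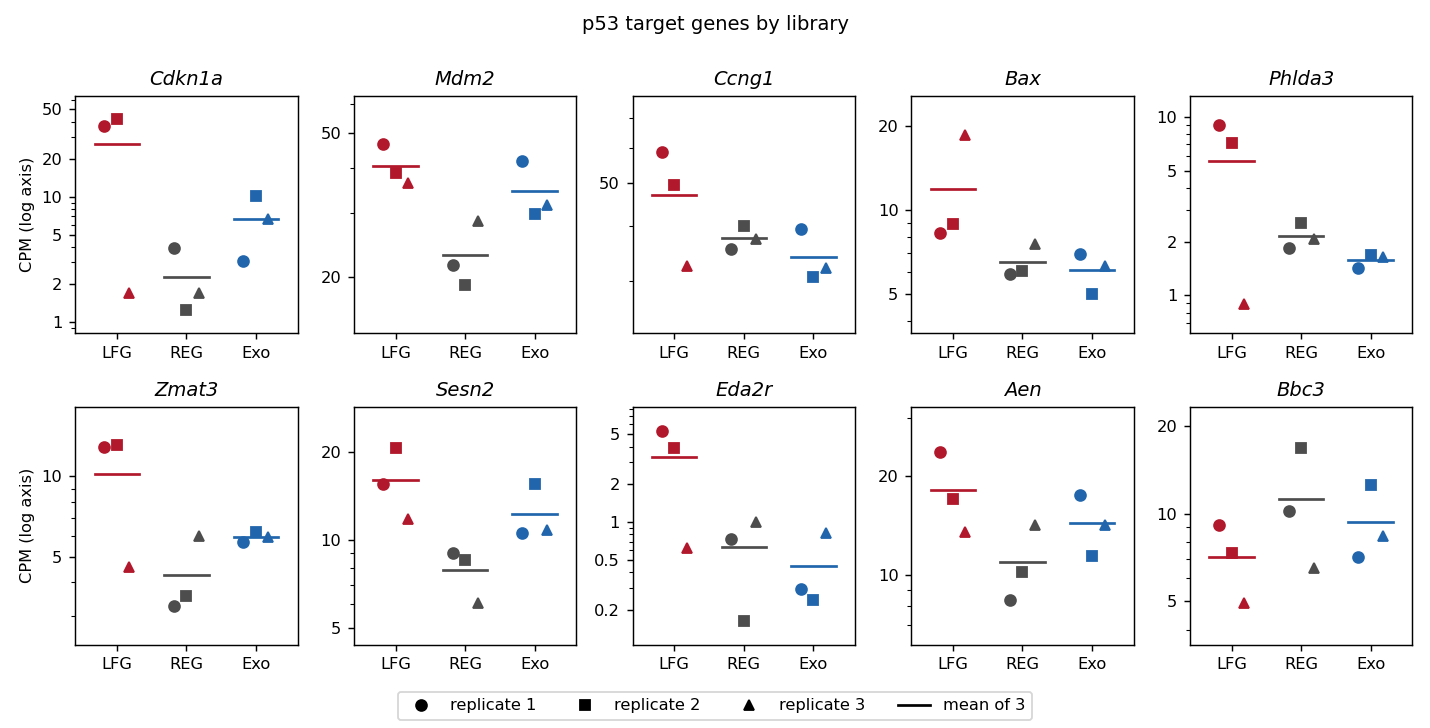
CPM of each of the 10 p53 target genes on a log axis in the 9 libraries, by group, with a point for each library and a bar at the group mean. Cdkn1a, Phlda3, Zmat3 and Eda2r were high in LFG 1 and LFG 2 and near the other groups in LFG 3, which for Cdkn1a was at 1.7 CPM against 36.6 and 41.7.

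The p53 target genes were highest, as a list, in LFG 1 and LFG 2. Relative to its own mean over the 9 libraries on the log2 CPM scale, the average member was at 1.07 in LFG 1, 0.94 in LFG 2 and -0.33 in LFG 3. It was at -0.53 to -0.31 in REG and at -0.26 to -0.09 in hADMSCs-Exo. All 10 members were above their own mean in LFG 1 and 9 were in LFG 2, against 3 in LFG 3, 1 to 3 in REG and 3 or 4 in hADMSCs-Exo. LFG 3 was thus on the side of the treated groups for the list as a whole, although it had the highest Bax of all libraries.

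**Figure D2:**
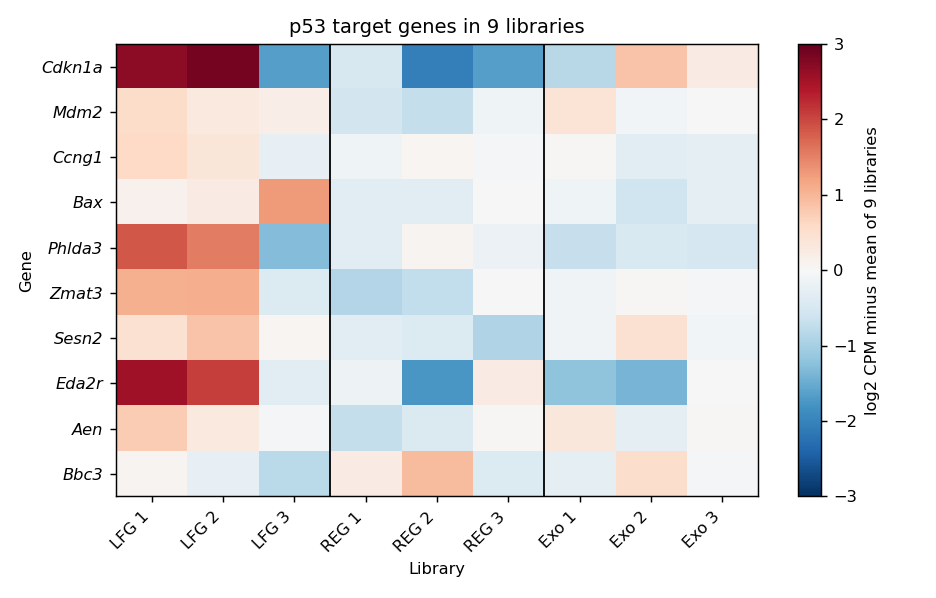
Deviation of each p53 target gene (rows) from its own mean log2 CPM over the 9 libraries (columns; Exo stands for hADMSCs-Exo), in log2 units. The average over the genes was 1.07 and 0.94 in LFG 1 and LFG 2 and between -0.53 and -0.09 in the other 7 libraries.

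Cdkn1a encodes p21, the inhibitor of cyclin-dependent kinases through which p53 halts the cell cycle. Its gene lies on the plus strand at chr17:29090976-29100727, with a gene of unknown coding status on the other strand. Cdkn1a was at 36.6, 41.7 and 1.7 CPM in LFG, at 3.94, 1.26 and 1.7 CPM in REG and at 3.08, 10.2 and 6.61 CPM in hADMSCs-Exo. LFG 1 and LFG 2 were above every other library, LFG 3 was level with REG, and REG and hADMSCs-Exo overlapped through REG 1 and hADMSCs-Exo 1. The counts behind these values were 869, 746 and 19 in LFG, 64, 23 and 32 in REG, and 52, 170 and 105 in hADMSCs-Exo. The fitted log2 fold change was -3.52 (SE 1.07, adjusted p = 0.371) in REG against LFG by edgeR's quasi-likelihood test, and -4.06 (SE 0.407, adjusted p = 0.0104) without LFG 3. In hADMSCs-Exo against LFG it was -2.03 (SE 1.00, adjusted p = 0.806), and -2.55 (SE 0.413, adjusted p = 0.0249) without LFG 3. Between the groups taken at the same time, hADMSCs-Exo against REG, it was 1.53 (SE 0.543, adjusted p = 0.432), a difference that did not pass the test. Over all other fits of that comparison it ranged from 1.07 to 2.17.

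Ccng1 encodes cyclin G1, an early p53 target with a part in cell cycle control and in the regulation of MDM2. Ccng1 was at 58.7, 49.5 and 32.5 CPM in LFG, at 35.4, 40 and 37.4 CPM in REG and at 39.4, 30.7 and 32.2 CPM in hADMSCs-Exo. LFG 3 was within the range of hADMSCs-Exo, and the groups overlapped in each comparison other than REG and LFG or hADMSCs-Exo and LFG without LFG 3. Its log2 fold changes were small beside those of Cdkn1a. They were -0.31 (SE 0.237, adjusted p = 0.636) in REG against LFG and -0.47 (SE 0.26, adjusted p = 0.817) in hADMSCs-Exo against LFG by edgeR. Without LFG 3 they were -0.48 (adjusted p = 0.0693) and -0.65 (adjusted p = 0.0712), and hADMSCs-Exo against REG gave -0.14 (SE 0.14, adjusted p = 0.75).

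Mdm2 encodes the ubiquitin ligase that marks p53 for degradation, so that p53 limits itself through this target. Mdm2 was at 46.5, 38.7 and 36.3 CPM in LFG, at 21.6, 19.1 and 28.6 CPM in REG and at 41.9, 29.8 and 31.7 CPM in hADMSCs-Exo. Every REG library was below every LFG and every hADMSCs-Exo library, and LFG 3 was close to LFG 2. Here the log2 fold change of REG against LFG was -0.80 (SE 0.216, adjusted p = 0.323 by edgeR), and without LFG 3 it was -0.84 (adjusted p = 0.0361), which passed the adjusted p but not the limit on fold change. The hADMSCs-Exo group overlapped LFG, with a log2 fold change of -0.24 (SE 0.208, adjusted p = 0.892) and, without LFG 3, of -0.29 (adjusted p = 0.374). It was above REG by 0.57 (SE 0.203, adjusted p = 0.432), which did not pass the test.

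Bax encodes the BCL2 family protein that permeabilizes the outer mitochondrial membrane in apoptosis. Its gene overlaps another protein-coding gene on the same strand, which could affect its counts. Bax was at 8.29, 8.94 and 18.6 CPM in LFG, at 5.91, 6.04 and 7.54 CPM in REG and at 6.93, 5 and 6.3 CPM in hADMSCs-Exo. Unlike the other members, Bax was highest in LFG 3, and every LFG library was above every library of the other groups. The log2 fold change was -0.86 (SE 0.371, adjusted p = 0.447) in REG against LFG and -0.97 (SE 0.37, adjusted p = 0.805) in hADMSCs-Exo against LFG by edgeR. Without LFG 3 these came to -0.36 and -0.49, with adjusted p of 0.282 and 0.227. REG and hADMSCs-Exo overlapped, at a difference of -0.10 (SE 0.218, adjusted p = 0.897).

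Bbc3 encodes PUMA, a BH3-only protein that binds antiapoptotic BCL2 proteins, and it did not share the pattern of the others. Bbc3 was at 9.13, 7.32 and 4.92 CPM in LFG, at 10.2, 16.8 and 6.53 CPM in REG and at 7.1, 12.5 and 8.38 CPM in hADMSCs-Exo. All 3 groups overlapped, and it was the single member with a positive log2 fold change against LFG, 0.65 (SE 0.404, adjusted p = 0.568) for REG and 0.37 (SE 0.348, adjusted p = 0.897) for hADMSCs-Exo by edgeR. In hADMSCs-Exo against REG it was -0.26 (SE 0.353, adjusted p = 0.823). Without LFG 3 the values against LFG were 0.49 (adjusted p = 0.387) for REG and 0.19 (adjusted p = 0.708) for hADMSCs-Exo. None of these passed the test.

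Eda2r encodes a receptor of the TNF receptor family that binds ectodysplasin A2, and it was the lowest of the members. Eda2r had 127, 69 and 7 counts in LFG, 12, 3 and 19 in REG, and 5, 4 and 13 in hADMSCs-Exo. In CPM this was 5.35, 3.86 and 0.626 in LFG, 0.739, 0.165 and 1.01 in REG, and 0.296, 0.241 and 0.819 in hADMSCs-Exo. LFG 1 and LFG 2 were above the other 7 libraries, among which LFG 3, REG and hADMSCs-Exo overlapped. The log2 fold change was -2.35 (SE 0.905, adjusted p = 0.414) in REG and -2.88 (SE 0.887, adjusted p = 0.805) in hADMSCs-Exo against LFG by edgeR. Without LFG 3 it was -2.80 (SE 0.585, adjusted p = 0.0248) and -3.33 (SE 0.55, adjusted p = 0.0257). The difference of -0.50 (SE 0.744) between hADMSCs-Exo and REG rests on at most 19 counts in a library and had an adjusted p of 0.836.

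Aen encodes an apoptosis-enhancing nuclease. Aen was at 23.7, 17 and 13.5 CPM in LFG, at 8.38, 10.2 and 14.2 CPM in REG and at 17.5, 11.4 and 14.2 CPM in hADMSCs-Exo. The groups overlapped in all 3 comparisons. Without LFG 3, REG lay wholly below LFG, as it also did without REG 3. REG against LFG gave -0.72 (SE 0.299, adjusted p = 0.438) by edgeR and -0.85 (adjusted p = 0.0597) without LFG 3. The values were -0.34 (SE 0.286, adjusted p = 0.888) in hADMSCs-Exo against LFG, -0.49 (adjusted p = 0.233) without LFG 3, and 0.39 (SE 0.238, adjusted p = 0.602) in hADMSCs-Exo against REG.

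Phlda3 encodes a pleckstrin homology domain protein that competes with AKT for membrane lipids and so restrains AKT. Phlda3 was at 9.01, 7.1 and 0.894 CPM in LFG, at 1.85, 2.53 and 2.07 CPM in REG and at 1.42, 1.69 and 1.64 CPM in hADMSCs-Exo. LFG 1 and LFG 2 were above all other libraries and LFG 3 was the lowest of the 9. Every hADMSCs-Exo library was below every REG library, by a fitted log2 difference of -0.44 (SE 0.298, adjusted p = 0.639 by edgeR). Against LFG the log2 fold change was -1.39 (SE 0.733, adjusted p = 0.509) for REG and -1.86 (SE 0.76, adjusted p = 0.805) for hADMSCs-Exo. Without LFG 3 it was -1.86 (SE 0.288, adjusted p = 0.0154) and -2.33 (SE 0.29, adjusted p = 0.0182).

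Zmat3 encodes an RNA-binding zinc finger protein that affects splicing and the stability of transcripts. Zmat3 was at 12.9, 13.1 and 4.56 CPM in LFG, at 3.26, 3.57 and 6 CPM in REG and at 5.68, 6.2 and 5.92 CPM in hADMSCs-Exo. LFG 1 and LFG 2 were again above the rest, with LFG 3 inside the range of REG and below hADMSCs-Exo. The log2 fold change against LFG was -1.24 (SE 0.47, adjusted p = 0.41) for REG and -0.80 (SE 0.423, adjusted p = 0.813) for hADMSCs-Exo by edgeR. Without LFG 3 it was -1.56 (SE 0.295, adjusted p = 0.0192) and -1.12 (SE 0.197, adjusted p = 0.0266). REG 3 overlapped hADMSCs-Exo, and the log2 difference between the groups was 0.47 (SE 0.275, adjusted p = 0.595).

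Sesn2 encodes sestrin 2, a stress protein that restrains mTORC1, and its gene overlaps, on the same strand, a gene annotated as antisense. Sesn2 was at 15.5, 20.6 and 11.8 CPM in LFG, at 8.99, 8.51 and 6.05 CPM in REG and at 10.5, 15.5 and 10.8 CPM in hADMSCs-Exo. Every REG library was below every library of both other groups, LFG 3 included, while LFG and hADMSCs-Exo overlapped. The log2 fold change was -1.01 (SE 0.286, adjusted p = 0.339) in REG against LFG by edgeR, and -1.15 (SE 0.24, adjusted p = 0.0248) without LFG 3. In hADMSCs-Exo it was -0.39 (SE 0.289, adjusted p = 0.868) against LFG and 0.64 (SE 0.235, adjusted p = 0.448) against REG.

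**Figure D3:**
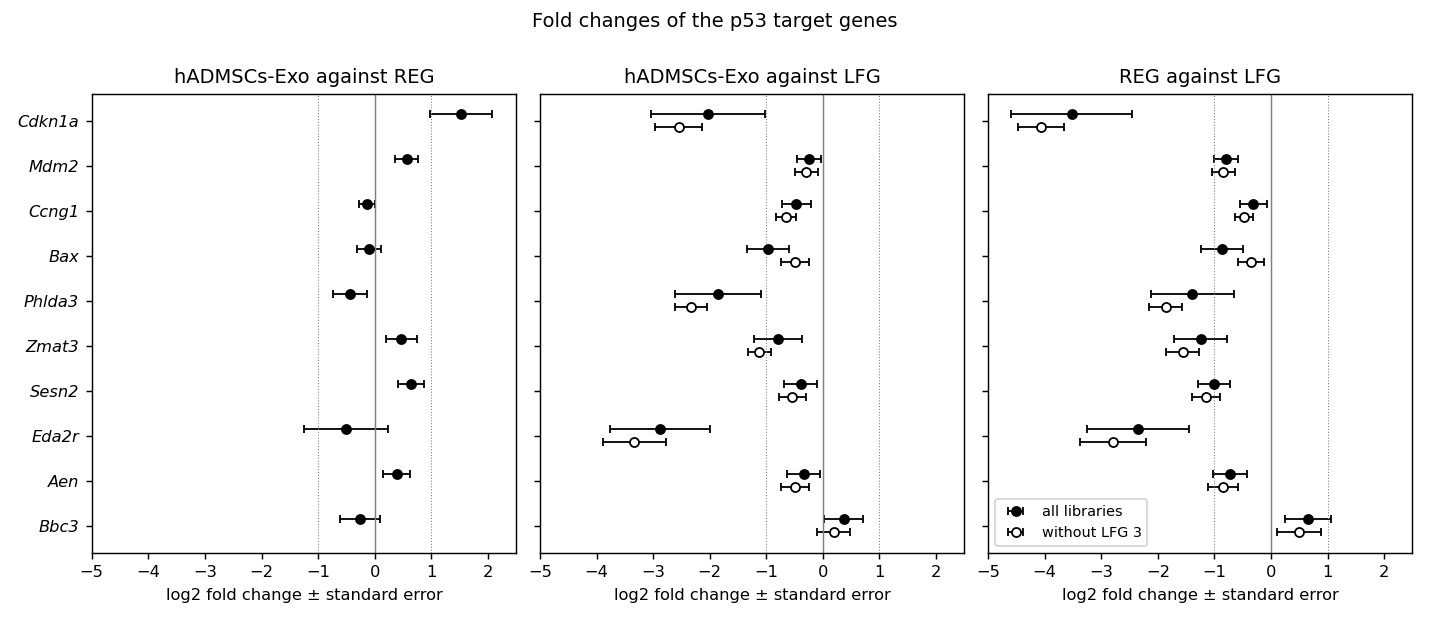
Log2 fold change (horizontal axis) with 1 SE on each side for the 10 p53 target genes in the 3 comparisons, by edgeR with all 6 libraries and, for the comparisons with LFG, without LFG 3. In both comparisons with LFG 9 of the 10 values are negative, and Bbc3 is the positive one.

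REG against LFG addresses what changes in a fibrotic liver left without CCl4. With all 6 libraries, edgeR called none of the 10 members at the limits used here, an adjusted p under 0.05 with a log2 fold change of 1 or more in either direction, and it called 0% of the 12517 genes tested. At an unadjusted p under 0.05, 6 members were lower in REG (Cdkn1a, Mdm2, Zmat3, Sesn2, Eda2r and Aen), against a background of 6.70% of all genes lower. That count was 3 without REG 1 and without REG 2, where 3.20% and 2.48% of all genes were lower at that p, and 8 without LFG 3, where 19.1% were. The groups did not overlap for 3 members, Mdm2, Bax and Sesn2, all lower, against 10.0% of all genes. Of the 10 members 9 had a negative log2 fold change, as had 55.9% of all genes, and the median over the members was -0.94, beside -0.068 over all genes. DESeq2 called Cdkn1a only, where it called 0.844% of all genes as lower, and limma with voom and quality weights called Cdkn1a, Phlda3, Zmat3, Sesn2 and Eda2r, where it called 6.74% as lower.

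Without LFG 3, edgeR called these 5 members lower in REG, Cdkn1a, Phlda3, Zmat3, Sesn2 and Eda2r, where it called 6.94% of the 12948 genes tested as lower and 10.7% in either direction. The median over the members was then -1.0, beside -0.005 over all genes. Of the 10 members 9 were below LFG in every REG library, where 29.8% of all genes were. Mdm2 and Ccng1, the members with the highest levels per length, differed by less than a log2 fold change of 1. The stellate cell and myofibroblast markers moved in the same direction, with all 9 lower in every REG library than in LFG 1 and LFG 2. So were 3 of 8 macrophage, 3 of 6 cholangiocyte, 1 of 6 neutrophil and 1 of 6 sinusoidal endothelium markers, while 4 of 7 hepatocyte, 3 of 8 T and B cell and 1 of 6 red blood cell markers were higher without overlap. The part of these markers in the differences was not tested.

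hADMSCs-Exo against LFG sets treated livers beside livers at the end of CCl4. By edgeR none of the 10 members was called with all 6 libraries, as was 0% of the 12489 genes tested. At an unadjusted p under 0.05, 3 members were lower in hADMSCs-Exo (Bax, Phlda3 and Eda2r), against 3.68% of all genes lower. With the replicate number as a block, an alternative fit, the count was 1, Bax, where 2.96% of all genes were lower at that p. It was 0 without hADMSCs-Exo 1 or hADMSCs-Exo 2 and 1 without hADMSCs-Exo 3, beside 1.81%, 2.35% and 1.66% of all genes, and 5 without LFG 3, beside 15.7%. DESeq2 and voom also called no member, with 4 and 7 members lower at an unadjusted p under 0.05, beside 4.65% and 15.7% of all genes. Bax was the 1 member whose groups did not overlap, where 5.93% of all genes were lower without overlap. Of the 10 members 9 had a negative log2 fold change, as had 56.9% of all genes, and their median was -0.63, beside -0.059 over all genes.

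Without LFG 3, edgeR called 4 members lower in hADMSCs-Exo, Cdkn1a, Phlda3, Zmat3 and Eda2r, where it called 4.50% of the 12955 genes tested as lower and 5.97% in either direction. The median over the members was -0.60, beside 0.004 over all genes, and 7 members were lower without overlap, as were 25.6% of all genes. Sesn2, which was called in REG against LFG, was at -0.54 (SE 0.24) here with an adjusted p of 0.187. Among the stellate cell and myofibroblast markers, 8 of 9 were lower without overlap in hADMSCs-Exo than in LFG 1 and LFG 2, and all 6 cholangiocyte markers and 6 of 8 macrophage markers were as well. Without overlap, 5 of 8 T and B cell markers, 3 of 6 neutrophil and 2 of 7 hepatocyte markers were higher, while 1 other neutrophil marker and 1 of 6 sinusoidal endothelium markers were lower. Their part in the result was not tested. Both comparisons with LFG share the LFG libraries.

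hADMSCs-Exo against REG compares exosome treatment with saline at the same time after CCl4. No member was called by edgeR, DESeq2 or voom, and edgeR called 0.00811% of the 12337 genes tested, which is 1 gene, Cyp2c55, a cytochrome P450 outside the p53 lists. At an unadjusted p under 0.05, Cdkn1a, Mdm2 and Sesn2 were higher in hADMSCs-Exo, 3 of 10 members against 5.34% of all genes higher. DESeq2 and voom also gave 3, beside 4.09% and 7.64% of all genes. By edgeR the count was 1 (Sesn2) without REG 2 and 1 (Mdm2) without hADMSCs-Exo 2, beside 2.58% and 4.02%. Mdm2 and Sesn2 were higher without overlap, against 8.07% of all genes, and Phlda3 was lower without overlap, against 7.47%. The members divided evenly, 5 with a positive and 5 with a negative log2 fold change, where 51.1% of all genes had a positive one, and their median was 0.15 beside 0.008 over all genes. The split was 7 positive and 3 negative without REG 3, and 6 and 4 under voom. Markers also differed without overlap between these groups. Lower in hADMSCs-Exo were 6 of 9 stellate cell and myofibroblast markers, 2 of 6 cholangiocyte markers and 2 of 7 hepatocyte markers, whose sum was lower as well, and higher were 1 hepatocyte marker and 2 of 8 T and B cell markers. Their part in the members' values was not tested.

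Compared per length, as deposited FPKM, the members spanned a wide range of levels. Ccng1 had the highest median over the 9 libraries, 10.1 FPKM, followed by Mdm2 at 5.83, Bax at 4.51, Bbc3 at 3.75, Sesn2 at 2.90 and Aen at 2.29. Phlda3 followed at 1.16, Cdkn1a at 1.08, Zmat3 at 0.498 and Eda2r at 0.122. Neighbours in this order overlapped in their ranges over the libraries. Eda2r was the lowest in all 9 libraries and Ccng1 the highest in 8, Bax being first in LFG 3. Cdkn1a changed its place most, ranking 2 in LFG 1 and LFG 2, at 14.2 and 12.8 FPKM, and between 6 and 9 in the other 7 libraries, at 0.328 to 2.91 FPKM.

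The level of p53's own transcript differed little between groups. Trp53 was at 28.9, 18.5 and 23.2 CPM in LFG, 25.3, 21.2 and 18.1 CPM in REG, and 21.4, 16.5 and 21.9 CPM in hADMSCs-Exo, and all groups overlapped. p53 is mainly regulated as a protein, which was not measured here. Of 16 genes for p53 and its regulators, edgeR called none in any comparison with all libraries. DESeq2 called 1 lower in hADMSCs-Exo and 1 in REG against LFG, beside 0.251% and 0.844% of all genes, and voom 2 lower in REG against LFG, beside 6.74%. Without LFG 3, 2 of them were called lower in REG against LFG and 1 in hADMSCs-Exo against LFG, beside 6.94% and 4.50% of all genes. Hipk2, a kinase that phosphorylates p53, was called in REG (-1.21, SE 0.215, adjusted p = 0.0175). Chek1, a kinase of the replication checkpoint, was called lower in REG (-3.28, SE 0.503, adjusted p = 0.0153) and in hADMSCs-Exo (-4.30, SE 0.614, adjusted p = 0.021) against LFG by edgeR. Chek1 was at 7.45, 4.13 and 1.25 CPM in LFG and at 0.12 to 0.769 CPM elsewhere, so that its groups did not overlap even with LFG 3. The acetyltransferase gene Ep300 was at 35.7, 38 and 25.9 CPM in LFG, 17, 19.7 and 22.1 CPM in REG and 34.3, 33.5 and 20.3 CPM in hADMSCs-Exo. REG was below LFG without overlap for Ep300 (-0.75, SE 0.209, adjusted p = 0.335). Mdm4, the partner of MDM2 in restraining p53, was at 48.1 to 52 CPM in LFG, 32.8 to 40.5 in REG and 39 to 44.9 in hADMSCs-Exo, with every library of both later groups below LFG. Kat5, another acetyltransferase, was at 7.69 to 8.49 CPM in LFG, 9.23 to 12.5 in REG and 7.56 to 9.04 in hADMSCs-Exo.

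Among 35 other p53 targets the directions were mixed. No gene of this list was called by edgeR with all libraries. DESeq2 called 2 higher in hADMSCs-Exo against REG, 1 lower in hADMSCs-Exo against LFG and 5 lower in REG against LFG, where it called 0.211% higher, 0.251% lower and 0.844% lower of all genes. In REG against LFG voom called 3 higher and 9 lower, beside 3.52% and 6.74% of all genes. In REG against LFG, 2 were higher and 9 lower at an unadjusted p under 0.05 of 33 tested, where 4.62% of all genes were higher and 6.70% lower, and the median was -0.17 beside -0.068 over all genes. Without LFG 3, 4 were called higher (Gadd45a, Gls2, Pank1 and Dcxr) and 9 lower of 34 tested, beside 3.81% and 6.94% of all genes. Trp53inp1, a p53-induced promoter of autophagy and cell death, was among the lower ones. Trp53inp1 was at 146, 390 and 205 CPM in LFG, at 28.8, 40.2 and 34.7 CPM in REG and at 42.9, 134 and 78 CPM in hADMSCs-Exo, so that the 3 groups were ordered without overlap and LFG 3 was on the side of LFG. The log2 fold change of Trp53inp1 was -2.83 (SE 0.398, adjusted p = 0.243) in REG against LFG by edgeR, and -2.91 (adjusted p = 0.0133) without LFG 3. In hADMSCs-Exo against REG it was 1.3 (SE 0.361, adjusted p = 0.407). Btg2, an antiproliferative gene, was at 37.7, 63 and 19.6 CPM in LFG, 13.2 to 18.1 in REG and 25 to 29.3 in hADMSCs-Exo, with all of hADMSCs-Exo above all of REG (0.80, SE 0.161, adjusted p = 0.358). In hADMSCs-Exo against LFG 1 gene of the list was higher and 4 lower at an unadjusted p under 0.05 of 32 tested, where 2.30% of all genes were higher and 3.68% lower. Without LFG 2 these counts were 2 and 0, beside 1.91% and 2.06% of all genes. Without LFG 1 or a hADMSCs-Exo library they were 0 and 3 to 5, beside 1.25% to 1.52% and 1.66% to 2.61%. Without LFG 3, 2 were called higher and 4 lower of 34, beside 1.47% and 4.50% of all genes. In hADMSCs-Exo against REG 5 were higher and 1 lower of 32 tested at an unadjusted p under 0.05, where 5.34% of all genes were higher and 4.69% lower. With 1 library left out these counts were 2 to 6 and 0 to 2, beside 2.58% to 6.64% and 2.34% to 4.69% of all genes. With all 9 libraries in one fit they were 1 and 0, beside 2.51% and 1.29%.

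**Figure D4:**
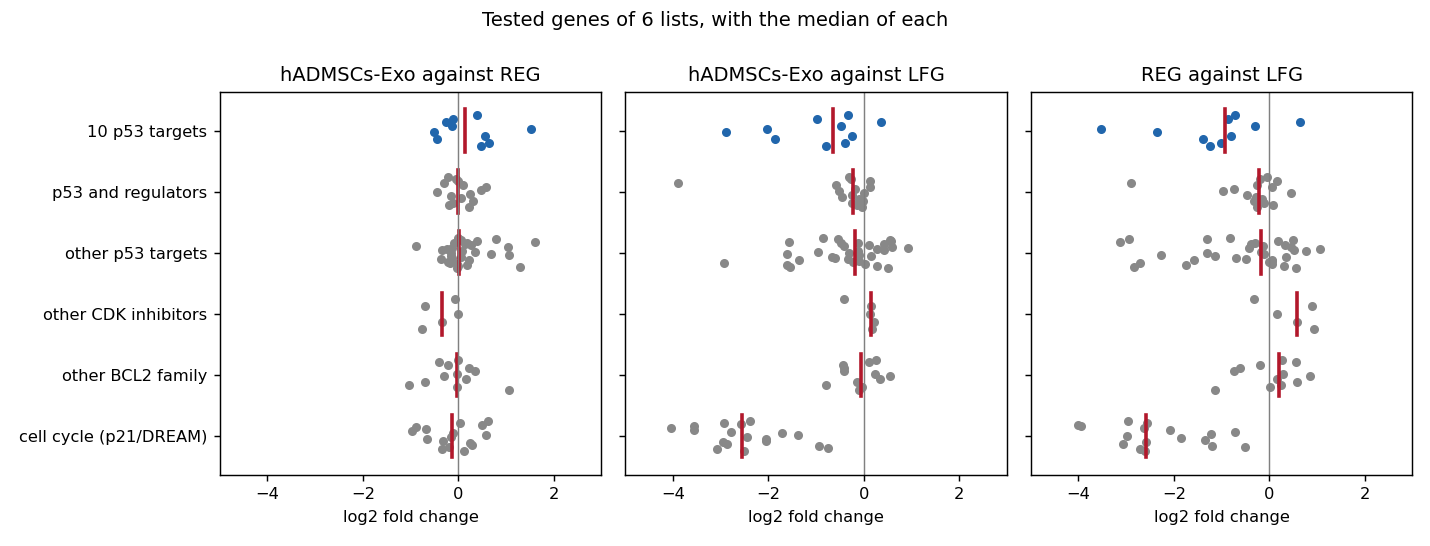
Log2 fold change of every tested gene (points) of the p53 target genes and the 5 other p53 pathway lists in each comparison, with a bar at the list median. With all libraries the cell cycle genes have medians of -2.54 and -2.59 in the comparisons with LFG, against -0.63 and -0.94 for the p53 target genes, and without LFG 1 these are -1.05 and -0.89 against -0.49 and -0.96.

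Genes of the cell cycle that p53 is known to repress through p21 and the DREAM complex had negative log2 fold changes against LFG, as Cdkn1a had. Of 19 genes, 18 were tested in hADMSCs-Exo against LFG and 17 in REG against LFG, and every value was negative, with medians of -2.54 and -2.59. At an unadjusted p under 0.05, 12 and 7 were lower, where 3.68% and 6.70% of all genes were. With all libraries edgeR called none. DESeq2 called 1 and 2 lower, beside 0.251% and 0.844% of all genes, and voom called 0 and 11 lower, beside 0.00801% and 6.74%. The medians rest largely on LFG 1. Without LFG 1 they were -1.05 and -0.89, 1 and 0 genes were lower at that p, and 1 gene had a positive log2 fold change in REG, of any size and with none higher at that p. Counts at that p also fell to 1 or 2 without a hADMSCs-Exo library, beside 1.66% to 2.35% of all genes, with medians of -2.6 to -2.44. In REG against LFG they fell to 0 to 2 without a REG library, beside 2.48% to 4.78%, with medians of -2.85 to -2.44. With the replicate block hADMSCs-Exo against LFG had a median of -1.7 and 3 genes at that p. Without LFG 3, 15 and 16 of 19 were called lower, beside 4.50% and 6.94% of all genes, with medians of -3.06 and -3.15. Ccnb2, a mitotic cyclin, was at 31.4, 8.21 and 1.52 CPM in LFG and at 0.318 to 1.91 CPM in the other libraries. Cdc20, the activator of the anaphase-promoting complex, was at 27.4, 4.41 and 0.358 CPM in LFG, 1.54 to 1.92 in REG and 0.888 to 0.964 in hADMSCs-Exo. Birc5, which encodes survivin, was at 27.9, 7.43 and 1.43 CPM in LFG and at 1.17 to 3.2 CPM elsewhere. The summed level of the list was 535, 181 and 52.5 CPM in LFG, 71.4 to 84.5 in REG and 63.1 to 69.2 in hADMSCs-Exo. LFG 1 had the higher cell cycle level of the pair that was high. For Cdkn1a the order of this pair depended on the scaling. LFG 2 was higher in CPM, 41.7 against 36.6, and LFG 1 in FPKM, 14.2 against 12.8. Between hADMSCs-Exo and REG the median of the list was -0.13 over 16 genes tested, but 0.25 without REG 1 and 0.06 under voom, and Cdc20 and Cenpa, a centromeric histone, were the 2 with an unadjusted p under 0.05, both lower in hADMSCs-Exo and neither past the adjusted threshold.

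Other inhibitors of cyclin-dependent kinases and other BCL2 family genes had few calls. Of 6 such inhibitors 5 were tested in each comparison with all libraries, and edgeR called none with or without LFG 3. Their median log2 fold change was 0.58 in REG and 0.16 in hADMSCs-Exo against LFG, 0.37 and -0.18 without LFG 3, and -0.34 in hADMSCs-Exo against REG. Cdkn1b, which encodes p27, was at 33.2, 30.3 and 23.4 CPM in LFG and at 21.1 to 23.4 CPM in the other libraries. Cdkn2c was at 10.2 to 22.5 CPM in LFG, 21.7 to 26.4 in REG and 14.3 to 23.1 in hADMSCs-Exo, and Cdkn2d was at 1.88 to 3.75 CPM in LFG, 3.29 to 7.25 in REG and 2.77 to 3.2 in hADMSCs-Exo, so that neither had the pattern of Cdkn1a. Of 13 BCL2 family genes 12 were tested, and edgeR called none with all libraries. Without LFG 3, 1 was called higher and 1 lower in REG against LFG, where 3.81% of all genes were called higher and 6.94% lower, and none in hADMSCs-Exo against LFG. With all libraries DESeq2 called none and voom called 1 higher and 1 lower in REG against LFG, beside 3.52% and 6.74% of all genes. The lower one without LFG 3 was Bcl2l11, which encodes the BH3-only protein BIM (-1.0, SE 0.223, adjusted p = 0.029). Bid, which carries the signal of death receptors to mitochondria, was called higher in REG than in LFG (1.24, SE 0.187, adjusted p = 0.0152 by edgeR). Bid was at 8.29, 8.66 and 15.7 CPM in LFG, 18 to 21.6 in REG and 13.8 to 18.8 in hADMSCs-Exo. The antiapoptotic Bcl2l1 was at 49.3 to 58.4 CPM in LFG, 31 to 40.9 in REG and 32 to 47.1 in hADMSCs-Exo, and LFG did not overlap either. Pmaip1, which encodes NOXA and stands in the lists of both p53 targets and the BCL2 family, was at 5.64, 3.3 and 0.626 CPM in LFG, 0.879 to 2.22 in REG and 2.66 to 3.65 in hADMSCs-Exo. Bok was at 3.31 to 8.88 CPM in LFG, 6.22 to 11.4 in REG and 2.49 to 5.54 in hADMSCs-Exo.

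The genes most like Cdkn1a were found by the root mean square difference of log2 CPM, each gene being centred on its mean over the 9 libraries, among 12759 genes. The closest were Ndc80 at 0.684, Pdk4 at 0.689, Gins2 at 0.74, Vcam1 at 0.758 and Slc10a6 at 0.766, where the median over all genes was 1.75 and the SD of Cdkn1a itself 1.73. Pdk4, a kinase that inhibits pyruvate dehydrogenase, was at 22.8, 33.4 and 1.07 CPM in LFG, 1.85 to 2.47 in REG and 3.15 to 5.06 in hADMSCs-Exo. Vcam1, an adhesion molecule, was at 117, 83.4 and 6.71 CPM in LFG, 14.4 to 35.5 in REG and 23 to 38.9 in hADMSCs-Exo. Ndc80, Gins2 and Slc10a6 were at most at 8.96 CPM in any library. Among the other members the closest were Eda2r, at rank 275 and a difference of 1.13, Phlda3 at rank 286 and Zmat3 at rank 481. Bbc3 and Bax were the farthest, at ranks 7179 and 8381. Cdkn1a itself deviated most in LFG 1 and LFG 2, by 2.69 and 2.88 on the log2 CPM scale, so these libraries weigh most in the measure.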

How the data were processed

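The authors deposited raw counts per gene for 9 liver libraries and, for the same genes, FPKM, and dividing the counts by gene length and total gave that FPKM back to within a relative 9.19e-07. The submitters' processing notes name cutadapt 1.15, HISAT2 2.0.5, HTSeq 0.9.1, DESeq 1.30.0 and GRCm38. The use of strand in counting is not given in the sources used here. Columns headed MSC_E, a header that does not spell out exosomes, were read as the hADMSCs-Exo libraries because the samples of cells are titled MSC with no E. Every hADMSCs-Exo value rests on that reading, and the hADMSCs group (3 samples) was not analysed here.

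The test was that of edgeR 4.0.16 under R 4.3.3 (TMM, its filter on low counts, two-sided quasi-likelihood test, Benjamini-Hochberg adjustment over all genes tested) on the 6 libraries of the groups compared. All 10 members passed the filter in each comparison. A gene was called where the adjusted p was under 0.05 and the log2 fold change was 1 or more in either direction. The SE was taken from the log2 fold change and its F statistic. CPM used TMM factors over the 9 libraries, and log2 CPM a prior count of 2. Alternatives were RLE size factors, DESeq2 1.42.0, limma 3.58.1 with voom and quality weights, no filter, all 9 libraries in one fit, a replicate block and each library left out. Scaling by library totals, and several of these without LFG 3, were added once the data had been seen. The script was tested on simulated counts.

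The members, the gene lists and the tests were chosen with earlier results of these data known. The genes named are all members, the 2 genes with the smallest p of each other list in each comparison, Trp53, Mdm4 and the 5 genes most like Cdkn1a; Cyp2c55, Hipk2, Bcl2l11, Gadd45a, Gls2, Pank1 and Dcxr were named after their values were seen. For 1 gene that the rule picks, no values are reported here. No main fit treated replicate numbers as pairs, and the replicate block was an alternative fit in every comparison. For hADMSCs-Exo and LFG, the deviations of same-numbered libraries from their group means correlated over genes by 0.101, 0.308 and 0.18. Labels do not say whether each library is a separate mouse, so p-values measure the spread between libraries, which differed by more than the sampling noise (chi-square per gene of at least 27.0).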

Additional observations from a re-analysis of the deposited data

How the results depend on the processing

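Leaving out 1 library at a time gave 0 to 1 genes called in hADMSCs-Exo against REG, 0 to 773 in hADMSCs-Exo against LFG and 0 to 1391 in REG against LFG, with 0, 0 to 4 and 0 to 5 members called. In the comparisons with LFG, 0% to 4.50% and 0% to 6.94% of all genes were called lower. Members at an unadjusted p under 0.05 numbered 1 to 3, 0 to 5 and 3 to 8. At that p 2.58% to 6.64% of all genes were higher in the first, and 1.66% to 15.7% and 2.48% to 19.1% lower in the others. The member median was 0.05 to 0.25, -0.70 to -0.49 and -1.0 to -0.91. In hADMSCs-Exo against REG, DESeq2 called 68 genes, voom 3, no filter 4 and all 9 libraries in one fit 0, no member being called, and the member median under voom was 0.33. In hADMSCs-Exo against LFG, DESeq2 called 58 genes, and voom and all 9 libraries in one fit 1 each, while members at an unadjusted p under 0.05 numbered 7 with voom and 1 with the replicate block. In REG against LFG, DESeq2 called 225 genes and 1 member, and voom 1285 genes and 5 members.

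Without LFG 3, hADMSCs-Exo against LFG gave 769 genes called with RLE size factors, 1405 with library totals only, 1316 with DESeq2 and 713 with voom. Each called 4 members lower, beside 4.43%, 9.97%, 5.76% and 4.05% of all genes called lower. At an unadjusted p under 0.05, 5, 9, 5 and 6 members were lower, beside 15.4%, 26.5%, 12.3% and 16.7% of all genes. REG against LFG gave 1366, 2428, 1763 and 1832 genes, and 5, 7, 5 and 5 members called, beside 6.80%, 17.2%, 6.88% and 9.21% of all genes called lower. Library totals moved the median of all genes without LFG 3 to -0.323 and -0.425, and the share of calls that were higher from 24.6% to 8.11% and from 35.4% to 8.32%. The cause of these changes was not tested beyond the scaling itself.

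For hADMSCs-Exo and REG, deviations of same-numbered libraries from their group means correlated by 0.159, 0.00939 and 0.0336. For REG and LFG they correlated by 0.415, -0.202 and 0.305. With the replicate block the members at an unadjusted p under 0.05 were 3 in each of these comparisons, beside 5.24% of all genes higher and 4.72% lower, and no member was called. Signs turned only for values within their error. In hADMSCs-Exo against REG, Eda2r was 0.26 under voom and 0.00 without REG 3, Bbc3 0.14 without REG 2, and Bax 0.02 without REG 3 or hADMSCs-Exo 2. Their ranges with 1 library left out were -1.23 to 0.00, -0.54 to 0.14 and -0.20 to 0.02. Bbc3 in hADMSCs-Exo against LFG was -0.15 with library totals without LFG 3. The full p53 element without a mismatch was in 0 members, and the half-site in 5. A wider window around the starts was not run. With 3 libraries a group, an exact permutation test of a single gene cannot go below 0.1, and the low counts of Eda2r limit its precision.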
